A study of Mus musculus with 2 samples.

Results

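The 37 genes of the mouse mitochondrial chromosome were followed in single-cell RNA sequencing of sorted brain myeloid cells. They were all rows of the deposited gene lists whose symbol begins with mt-, 37 of 55357 genes. The 37 comprised 13 mRNAs, 2 rRNAs and 22 tRNAs. 1 library came from wild-type mice and 1 from mice in which Msn, the gene of the membrane-cytoskeleton linker moesin, was knocked out. Both libraries held CD45+ CD11b+ cells of the cerebral cortex at 8 weeks of age, pooled over 5 to 6 mice of that genotype. The series design names C57BL/6 for the Msn knockout mice. Neither the strain of the wild-type animals nor the sex of either group is given in the sources used here, nor is the deleted part of Msn. With 1 library per genotype no test was possible. Genotype cannot be told apart from library, and every interval given (95%) covers counting error only.

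The mitochondrial chromosome encodes core subunits of the respiratory chain, together with the rRNAs and tRNAs that translate them inside the organelle. Both of its strands are transcribed as long precursors, out of which the tRNAs are cut so that the mRNAs and rRNAs between them are released. Most mitochondrial mRNAs carry short poly(A) tails. The other subunits of the same complexes come from nuclear genes, and the share of mitochondrial RNA in a cell barcode is a common measure of cell quality in this kind of data. In microglia, the resident macrophages of the brain, energy metabolism is known to change with the inflammatory state of the cell.

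There were 5842 barcodes with 68576464 UMIs in the wild-type and 9038 barcodes with 67575835 UMIs in the knockout library. UMIs are molecular identifiers, counted here from the 3′ ends of transcripts. The median barcode had 6706 UMIs in the wild-type library against 4816 in the knockout library, and 10.1% and 29.9% of barcodes had under 2000 UMIs. The libraries had 13 barcode sequences in common. Barcodes were placed in classes by UMIs of gate genes. The microglia gate (P2ry12, a purinergic receptor of microglia) held 5193 wild-type and 5315 knockout barcodes. The monocyte gate (Ace or Ly6c2) held 46 and 497, the border macrophage gate (Mrc1) 36 and 88, and the NK cell gate (Nkg7) 0 and 86. All 10 microglia markers were at 10 UMIs per 1000000 (CPM) or more in the microglia gate of both libraries, with 19203 CPM in sum in the wild-type library and 19117 CPM in the knockout library. Msn itself was at 323 CPM in the wild-type microglia gate and 20.8 CPM in that of the knockout.

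Sequence decides how far a read can be placed on these genes. On GRCm39, bases 6390 to 11042 of the 16299-base mitochondrial chromosome have a nuclear copy at chr1:24650616-24655269 on the minus strand, with 99.94% identity over 4654 aligned bases. The substitutions in that copy were A6393T in mt-Co1 and T9461C in mt-Nd3 (mitochondrial base first, positions from the start of the mitochondrial chromosome). The copy also has an additional A within mt-Tr, aligned at base 9829. All windows of 90 bases in the last 300 bases of 7 mRNAs also occurred without mismatch in the nuclear genome (mt-Co1, mt-Co2, mt-Atp8, mt-Atp6, mt-Co3, mt-Nd3 and mt-Nd4l). None did for mt-Nd1, mt-Nd4, mt-Nd5, mt-Nd6, mt-Cytb and both rRNAs, and 19.0% did for mt-Nd2. The last 90 bases of mt-Co2 (chrM:7607-7696, plus strand) and mt-Cytb (chrM:15199-15288, plus strand) show both cases. The mt-Co2 stretch is identical to chr1:24653963-24654052 on the minus strand, while capitals mark the 6 bases of mt-Cytb that differ from its nearest nuclear copy at chr4:79923280-79923369. A pair of tRNA genes follows, because the protocol captured poly(A) RNA, per the labels. These are mt-Tc (chrM:5192-5257, minus strand), the tRNA with the most UMIs in the wild-type microglia gate, and mt-Tr (chrM:9808-9875, plus strand), with the longest A run of the tRNAs. Capitals mark their longest A runs, of 3 and 8 bases.
mt-Co2: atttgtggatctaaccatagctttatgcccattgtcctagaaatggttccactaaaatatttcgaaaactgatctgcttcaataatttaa
mt-Cytb: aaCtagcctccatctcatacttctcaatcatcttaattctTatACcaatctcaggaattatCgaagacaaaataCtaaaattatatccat
mt-Tc: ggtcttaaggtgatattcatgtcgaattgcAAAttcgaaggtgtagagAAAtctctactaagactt
mt-Tr: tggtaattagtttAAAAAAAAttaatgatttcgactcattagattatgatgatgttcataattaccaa

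Mitochondrially encoded RNA was lower in the knockout library. Over all barcodes it made up 14783 CPM (1.48% of all UMIs) in the wild-type library against 5432.5 CPM (0.543%) in the knockout library, a log2 ratio of -1.44 (-1.45 to -1.44). Within the microglia gate the values were 14371 CPM (14342 to 14400) and 4846 CPM (4828 to 4864), 2.97-fold lower in the knockout library. Per barcode of that gate, the share of mitochondrial UMIs had its quartiles at 1.09%, 1.40% and 1.83% in the wild-type library and at 0.335%, 0.471% and 0.654% in the knockout library, so the middle ranges of the libraries did not overlap. Markers of other cells in the microglia gate also differed between the libraries. The neutrophil list was at 81.9 CPM in the wild-type library and 414 CPM in the knockout library (all 5 of 5 genes with UMIs in both), the border macrophage list at 49.2 and 213 CPM (7 of 7 in both), and the erythroid list at 80.0 and 162 CPM (5 of 5 in both). The patrolling monocyte list was at 28.7 and 111 CPM (6 of 6 in both) and the classical monocyte list at 33.2 and 142 CPM (6 of 6 in both). The NK cell list was at 0.438 CPM (3 of 7 genes, Nkg7, Ncr1, Klre1 and Klra8 at 0) and 29.6 CPM (7 of 7), and the T cell list at 0.166 CPM (1 of 5, Cd3e, Cd3g, Trac and Cd8a at 0) and 3.39 CPM (5 of 5). The choroid plexus and ependymal list was at 1.01 CPM (3 of 5, Kl and Clic6 at 0) and 11.6 CPM (4 of 5, Kl at 0). The astrocyte list went the other way, at 194 and 149 CPM (5 of 5 in both), and the B cell, oligodendrocyte and endothelial lists were at 184 and 197, 62.9 and 59.9, and 28.7 and 22.9 CPM. The part of these cells in the difference was not tested. Barcodes that had 20 or more UMIs of S100a8, Hbb-bs or Ttr, markers of neutrophils, erythroid cells and choroid plexus, were removed in an alternative. It left 5186 wild-type and 5268 knockout barcodes. Mitochondrial RNA in the gate was then at 14375 and 4851 CPM, 2.96-fold lower in the knockout library. This removed few barcodes and used no gene of the other lists, so it cannot decide the part of those cells.

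Calls of higher or lower were made at a difference of 1.5-fold or more, for genes that reached 10 CPM in 1 library or both. In the microglia gate, 13 of 13 members that reached this level were called lower in the knockout library, against 31.2% of all genes. No member was called higher, against 5.77% of all genes. The 13 comprised 11 mRNAs and both rRNAs, while mt-Co2, mt-Nd4l and the 22 tRNAs were under the level. Of the 13, mt-Co3, mt-Nd6 and mt-Atp6 reached 10 CPM only in the wild-type library, so they could not be called higher. The members' median log2 ratio was -2.01, and that of all genes tested was -0.31. Relative to this median of all genes, 12 of 13 members were called lower, against 11.9% of all genes, and the exception was mt-Cytb. Over all barcodes, 13 of 13 members were called lower, against 32.0% of all genes.

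The 7 mRNAs for subunits of complex I (NADH dehydrogenase), the entry point of electrons from NADH, made up 5607 CPM in the wild-type microglia gate and 1853 CPM in that of the knockout. mt-Nd1 was at 1790.2 and 684 CPM, a log2 ratio of -1.39 (-1.41 to -1.37). mt-Nd2 was at 1672 and 466 CPM, a log2 ratio of -1.84 (-1.86 to -1.82). Both encode membrane-arm subunits and neither has a nuclear copy over its whole 3′ end. mt-Nd4 was at 1379 and 486 CPM and mt-Nd5 at 393 and 137 CPM, with log2 ratios of -1.50 and -1.52. mt-Nd3, with a nuclear copy at its 3′ end, was at 345 and 72.8 CPM, a log2 ratio of -2.24 (-2.29 to -2.20). mt-Nd6, the single mRNA encoded on the other strand, was at 23.9 and 4.04 CPM, a log2 ratio of -2.57 (-2.78 to -2.37). Its 3′ end overlaps that of mt-Nd5 on the opposite strand, and the sources used here do not give the strand setting of the counting, so reads of the pair may not have been told apart. mt-Nd4l, which shares an mRNA with mt-Nd4, had 312 and 203 UMIs (4.71 and 3.68 CPM). Its log2 ratio of -0.36 (-0.62 to -0.10) lay near the median of all genes and became 0.07 with TMM scaling and 0.11 with median-of-ratios scaling. It was the 1 member of 32 with a ratio whose direction depended on the scaling.

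mt-Cytb encodes cytochrome b, the mitochondrially encoded subunit of complex III, which passes electrons from ubiquinol to cytochrome c. It was at 2522 CPM (2510 to 2534) in the wild-type microglia gate and at 1502.5 CPM (1492 to 1513) in that of the knockout. This was 1.68-fold lower, a log2 ratio of -0.75 (-0.76 to -0.74), closer to 0 than that of the other 12 members at 10 CPM or more. Its share of mitochondrial UMIs was accordingly 17.5% (17.5 to 17.6) in the wild-type library against 31.0% (30.8 to 31.2) in the knockout library. Its interval did not overlap those of the other 12, so the 13 members did not differ by 1 common factor.

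Complex IV (cytochrome c oxidase) reduces oxygen, and its catalytic core is mitochondrially encoded. mt-Co1, which holds the oxygen-reducing site, was at 411 and 159 CPM, a log2 ratio of -1.37 (-1.41 to -1.34). mt-Co3 was at 17.7 and 4.02 CPM, a log2 ratio of -2.14 (-2.35 to -1.93). mt-Co2 was at 5.42 and 0.996 CPM from 359 and 55 UMIs, a log2 ratio of -2.45 (-2.88 to -2.03). All 3 have 3′ ends that also occur in the nuclear genome.

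Complex V is the ATP synthase, whose proton channel contains the product of mt-Atp6, and mt-Atp8 overlaps mt-Atp6 on 1 shared mRNA. mt-Atp8 was at 121 CPM in the wild-type microglia gate and 19.2 CPM in that of the knockout, a log2 ratio of -2.65 (-2.74 to -2.56). mt-Atp6 was at 31.9 and 4.78 CPM, a log2 ratio of -2.74 (-2.93 to -2.55). These were 6.27-fold and 6.66-fold lower, and UMIs within the overlap cannot be assigned to 1 of the pair. Summed over their members, the mRNAs of complexes I, III, IV and V had log2 ratios of -1.60, -0.75, -1.41 and -2.67.

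**Figure D1:**
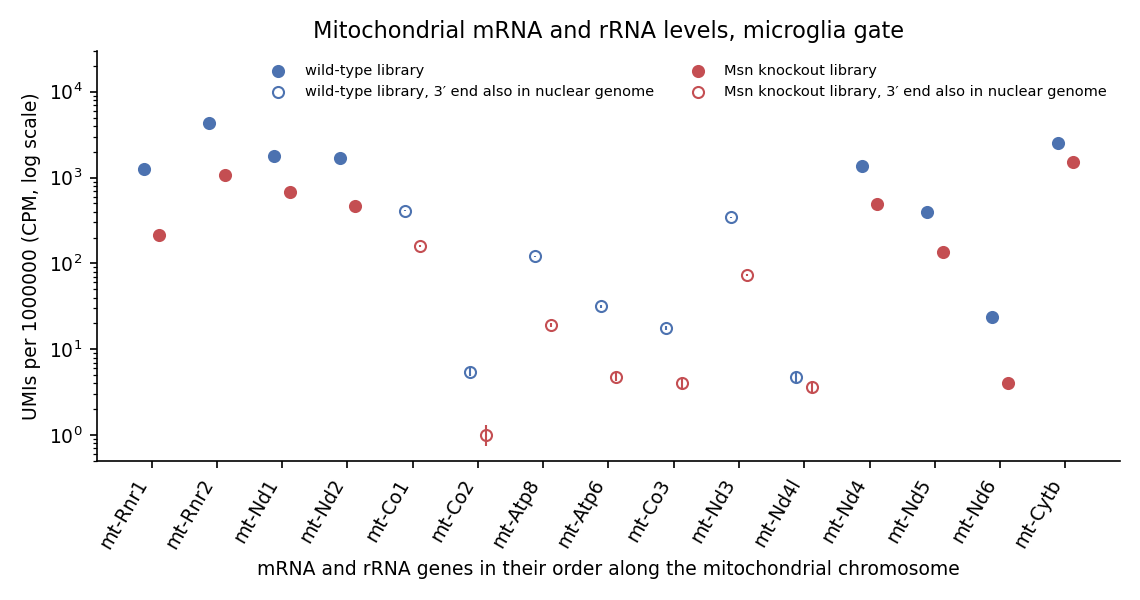
UMIs per 1000000 (CPM, log axis) of the 13 mRNAs and 2 rRNAs in the microglia gate, in gene order along the mitochondrial chromosome. Points stand for the summed library with its 95% counting interval, and open points mark genes whose 3′ ends also occur in the nuclear genome. Every knockout point lies below its wild-type point on this scale (for mt-Nd4l the direction depends on the scaling). By wild-type level the genes run from mt-Nd4l (4.71 and 3.68 CPM) to mt-Rnr2 (4377 and 1085 CPM).

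The 7 mRNAs whose 3′ ends occur in the nuclear genome summed to 936 CPM in the wild-type microglia gate and 264 CPM in that of the knockout, a log2 ratio of -1.83. The other 6 summed to 7779 and 3279 CPM, a log2 ratio of -1.25. The sources used here do not say how reads that match both places were handled. A pseudogene annotated over the chromosome 1 copy of mt-Co3, Gm28437, had 81 and 35 UMIs in the whole libraries. Atp6-ps, over the copy of mt-Atp6, had 63 and 19. The part of the copies in the levels of these 7 mRNAs was not tested.

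The rRNAs of the mitochondrial ribosome differed more than the mRNAs in sum. mt-Rnr1, the small-subunit rRNA, was at 1258 CPM in the wild-type microglia gate and 216 CPM in that of the knockout, 5.82-fold lower with a log2 ratio of -2.54 (-2.57 to -2.51). mt-Rnr2, the large-subunit rRNA, was at 4377 and 1085 CPM, 4.04-fold lower with a log2 ratio of -2.01. Together they were at 5635 and 1301 CPM, a log2 ratio of -2.11, while the 13 mRNAs were at 8716 and 3544 CPM, a log2 ratio of -1.30 (-1.31 to -1.29). The share of rRNA among mitochondrial UMIs was 39.2% in the wild-type library against 26.8% in the knockout library.

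tRNA genes carried few UMIs. The 22 together had 1330 UMIs in the wild-type microglia gate and 88 in that of the knockout, or 20.1 CPM (19.0 to 21.2) and 1.59 CPM (1.28 to 1.96). The log2 ratio of -3.66 (-3.98 to -3.34) was farther from 0 than those of mRNA and rRNA. mt-Tc, which reads cysteine codons, had 196 and 14 UMIs, a log2 ratio of -3.55 (-4.44 to -2.77). mt-Tt, the threonine tRNA next to mt-Cytb, had 127 and 19 UMIs, a log2 ratio of -2.48 (-3.26 to -1.78). mt-Tv, between the rRNA genes, had 127 and 6 UMIs, a log2 ratio of -4.14 (-5.62 to -2.98). mt-Tm had 106 and 3 UMIs, a log2 ratio of -4.88 (-7.18 to -3.29). Counts this low leave wide intervals, and those of mt-Tk (4 and 1 UMIs) and mt-Tl2 (8 and 2) included 0. 5 tRNAs had no UMI in the knockout gate, of which mt-Tn had 60 in the wild-type gate, at least 16.7-fold lower against a limit of 3 counts, and mt-Tp had 35, at least 9.73-fold lower. mt-Te and mt-Th had 23 and 22, and mt-Ty had 3, too few for a ratio. mt-Tr, with its A run of 8 bases shown above, had 70 and 5 UMIs. Whether A runs bear on the tRNA counts was not tested. With no minimum level, 31 of the 32 members with a ratio were called lower, against 44.3% of all genes, and mt-Nd4l was the exception.

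**Figure D2:**
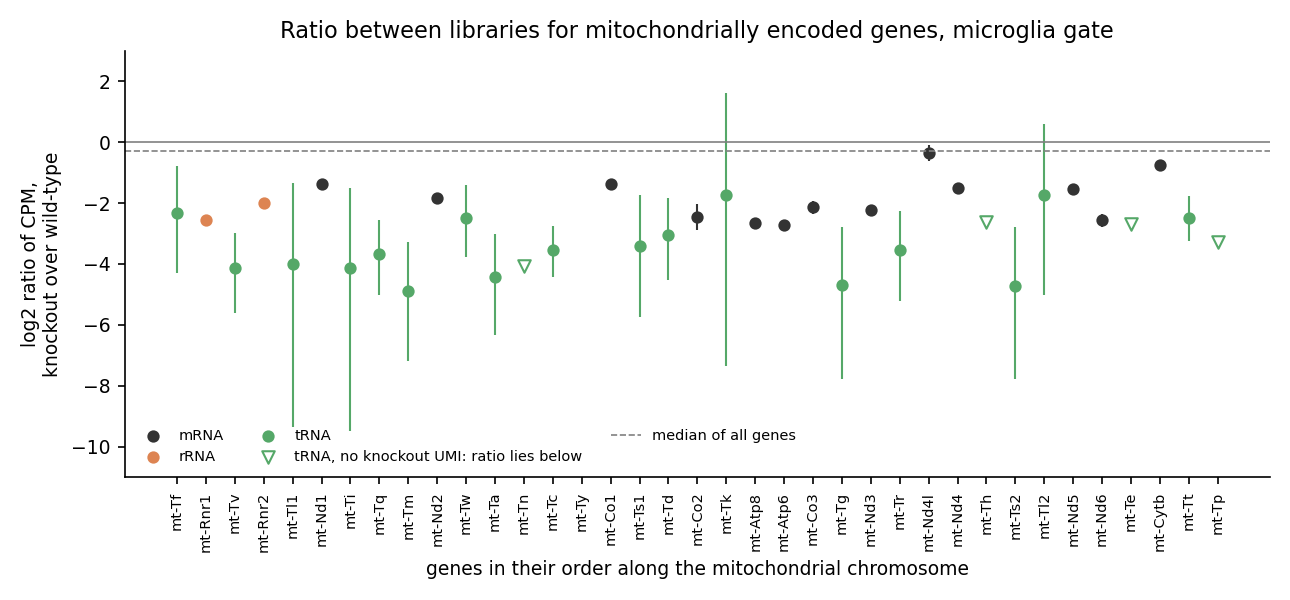
Log2 ratio of CPM, knockout over wild-type library, for the mitochondrially encoded genes in the microglia gate, in gene order along the chromosome. Points carry 95% counting intervals, open triangles are limits for tRNAs with no knockout UMI, the dashed line is the median of all genes (-0.31), and mt-Ty, with 3 wild-type UMIs, has no point. mt-Cytb (-0.75) and mt-Nd4l (-0.36) lie closest to the line.

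The share of mitochondrial RNA depended on the number of UMIs per barcode in both libraries. In the microglia gate, barcodes with 1000 to under 2000 UMIs had 44645 CPM in the wild-type library and 15532 CPM in the knockout library. Barcodes with 8000 to under 16000 UMIs had 14853 and 4861 CPM. The shallower bin was thus 3.01-fold (2.94 to 3.07) above the deeper in the wild-type library against 3.20-fold (3.10 to 3.29) in the knockout library. 16 of 16 members at 10 CPM or more were called higher in the shallower bin of the wild-type library, against 24.4% of all genes. In the knockout library, 12 of 12 were called higher, against 19.3%. In the wild-type library mt-Co2, mt-Nd4l and the 1 tRNA counted reached 10 CPM only in the shallower bin. The same held for mt-Nd4l in the knockout library. Such members could not be called lower. The fold of mt-Nd4l was 3.42 (0.688 to 10.4) in the wild-type library against 3.46 (0.902 to 9.49) in the knockout library. The rRNAs went different ways between the libraries. mt-Rnr2 had a fold of 3.43 (3.30 to 3.55) in the wild-type library against 3.75 (3.54 to 3.97) in the knockout library, and mt-Rnr1 had 3.77 (3.54 to 4.02) against 2.79 (2.39 to 3.23). The mRNAs in sum had folds of 2.62 and 3.03, and mt-Cytb 2.67 and 3.27. The nuclear noncoding RNA Malat1 was at 63103 and 35432 CPM in these bins of the wild-type library and at 43434 and 31013 CPM in those of the knockout library.

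The difference between the libraries was present in each of the 6 depth bins of the microglia gate. Mitochondrial RNA was 2.54-fold lower in the knockout library at 500 to under 1000 UMIs and 2.87-fold lower at 1000 to under 2000 UMIs. It was 3.42-fold lower at 2000 to under 4000 UMIs, then 3.16-fold, 3.06-fold and 2.97-fold lower in the deeper bins. At 2000 to under 4000 UMIs 13 of 13 members were called lower, against 34.9% of all genes. The bins of 4000 to under 8000, 8000 to under 16000 and 16000 or more UMIs also gave 13 of 13, against 28.3%, 31.0% and 32.8%. At 1000 to under 2000 UMIs 14 of 16 were called lower, against 39.4%, with mt-Nd4l and mt-Cytb as the exceptions. In this bin and that of 8000 to under 16000 UMIs, mt-Atp6 and mt-Nd6 reached 10 CPM only in the wild-type library. They could not be called higher there. The shallowest bin, with 47 wild-type barcodes, gave 12 of 15, against 36.1%. Of the 12 mRNAs tested in it, 9 were called lower and 1 higher. There mt-Cytb was at 7328 and 6212.5 CPM, and mt-Nd4l (0 and 3 UMIs) was called higher, against 28.4% of all genes. Binning by the UMIs of other genes alone gave folds between 2.60 and 3.37.

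The make-up of mitochondrial UMIs also moved with depth. In the wild-type microglia gate the rRNA share was 50.9% at 1000 to under 2000 UMIs, 47.6% at 4000 to under 8000 and 33.6% at 16000 or more. In the knockout library it was 32.1%, 30.4% and 23.4%. The knockout share lay below the wild-type share in all 6 bins. The share of mt-Cytb was between 14.6% and 19.1% over the wild-type bins and between 30.2% and 31.7% over the knockout bins, so that the ranges of the libraries did not overlap.

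**Figure D3:**
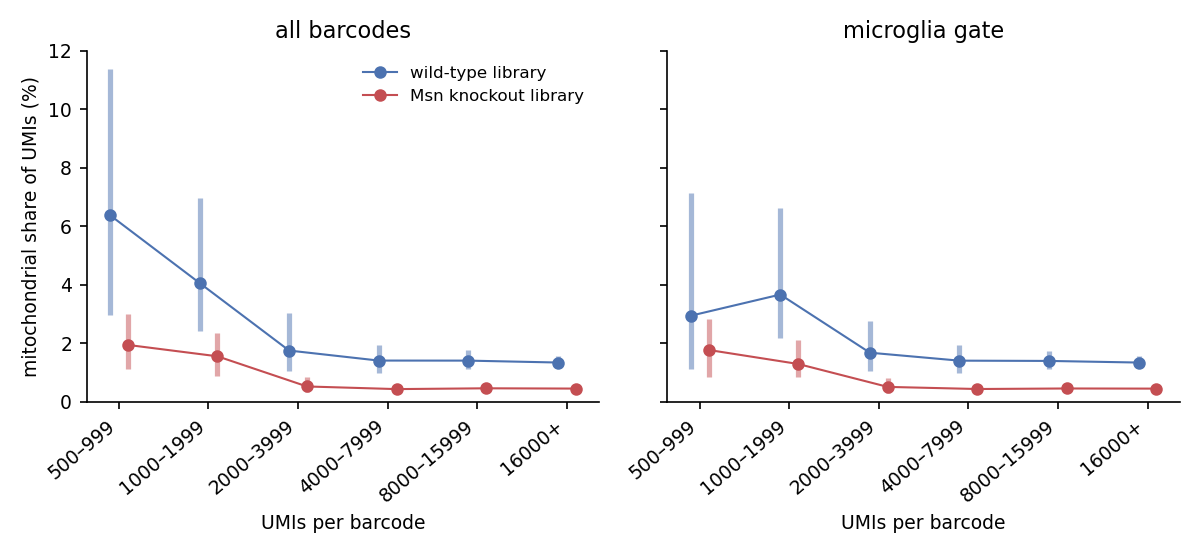
Mitochondrial share of UMIs (%) per barcode by the number of UMIs per barcode, for all barcodes and for the microglia gate. Points are medians over barcodes and bars run from the lower to the upper quartile. In the microglia gate the knockout medians, from 1.78% in the shallowest to 0.455% in the deepest bin, lie below the wild-type medians, from 2.95% to 1.35%.

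Other gated classes could be compared with microglia in the knockout library, since fewer than 50 wild-type barcodes fell in each. The NK cell gate held 0 of 5842 wild-type barcodes, which allows a share of up to 0.0514%. In the knockout monocyte gate, 2 barcodes had 2044 and 3792 UMIs of Ttr, the transthyretin gene of choroid plexus epithelium, and 7 had 20 or more UMIs of the neutrophil gene S100a8. The choroid plexus list was at 1856 CPM (4 of 5 genes with UMIs, Ccdc153 at 0) and the neutrophil list at 4006 CPM (5 of 5) in this gate. Values without these 9 barcodes, a choice made after their values were seen, are given first. The remaining 488 monocyte-gated barcodes had mitochondrial RNA at 4924 CPM, 1.02-fold (1.00 to 1.03) the level of knockout microglia. mRNA was at 2808 CPM, 0.792 times that of microglia, and rRNA at 2114 CPM, 1.63-fold. With all 497 barcodes the folds were 1.18, 0.969 and 1.75.

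Single members of the monocyte gate went different ways. mt-Rnr1 was 1.90-fold (1.79 to 2.01), mt-Co1 1.74-fold (1.63 to 1.87) and mt-Rnr2 1.57-fold (1.53 to 1.62) the level in knockout microglia. These 3 of 10 members at 10 CPM or more were called higher, against 21.5% of all genes, and none was called lower, against 41.4%. mt-Cytb was at 0.723 times and mt-Nd1 at 0.785 times the level in microglia. Ace, an angiotensin-converting enzyme of patrolling monocytes, and Ly6c2, a surface antigen of classical monocytes, marked separate groups. The 298 Ace-gated barcodes had mRNA at 0.720 times and rRNA at 1.59-fold the level in microglia. The 2 barcodes with Ttr mattered most here, since with them the same folds were 1.08 and 1.85. The 175 Ly6c2-gated barcodes had mRNA at 0.887 times and rRNA at 1.65-fold.

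Border macrophages, which line the meninges and vessels, had mitochondrial RNA at 6623 CPM in the knockout library from 88 barcodes, 1.37-fold (1.31 to 1.42) the level in microglia. Their mRNA was 1.20-fold and their rRNA 1.82-fold that level. mt-Co1, mt-Rnr1, mt-Rnr2, mt-Co3 and mt-Nd4l, 5 of 12 members, were called higher, against 18.7% of all genes, and none lower, against 25.6%. mt-Co1 was 1.92-fold (1.58 to 2.31) above microglia, while mt-Co3 and mt-Nd4l rested on 6 UMIs each. Both of these reached 10 CPM only in the border macrophage gate, so their call of higher was fixed by that minimum level. The gate of NK cells, lymphocytes that kill infected or altered cells, held 86 barcodes. In it the NK cell list was at 24661 CPM (7 of 7 genes with UMIs) and the T cell list at 338 CPM (5 of 5). The microglia and classical monocyte lists were at 948 and 1105 CPM there. Whether T cells were among these barcodes was not tested. Mitochondrial RNA in this gate was at 6033 CPM, 1.24-fold (1.20 to 1.29) the level in microglia. mt-Co1 was at 354 CPM, 2.23-fold (1.89 to 2.62), mt-Rnr1 at 448 CPM, 2.07-fold (1.79 to 2.38), and mt-Atp8 1.66-fold (0.91 to 2.80). These 3 of 10 members were called higher, against 26.2% of all genes, and none lower, against 39.5%.

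In the knockout library the rRNA share of mitochondrial UMIs was 42.9% (42.2 to 43.7) in the remaining monocyte barcodes, 35.8% (34.0 to 37.8) in border macrophages and 32.6% (30.8 to 34.5) in NK cells, each above the 26.8% of microglia. The share of mt-Cytb was 22.05% in these monocytes and 26.4% in border macrophages, below the 31.0% of microglia. The median barcode of the knockout monocyte, border macrophage and NK cell gates had 5772, 4486.5 and 4430.5 UMIs, and that of the microglia gate 5968. The small wild-type classes are described within their own library. Its 46 monocyte-gated barcodes had mRNA at 5272 CPM and rRNA at 12276 CPM, an rRNA share of 69.9% (68.8 to 71.0), and mt-Cytb made up 7.09% of their mitochondrial UMIs. Its 36 border macrophage barcodes had 9883 and 13187 CPM, an rRNA share of 57.1% (55.5 to 58.7) and an mt-Cytb share of 11.4%. The classical and patrolling monocyte lists were at 10720 and 1418 CPM in the wild-type monocyte gate. In the whole knockout gate, with the barcodes rich in Ttr or S100a8 kept, they were at 6695 and 2198 CPM. With so few wild-type barcodes, the make-up of the monocyte gates was not compared between the libraries.

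**Figure D4:**
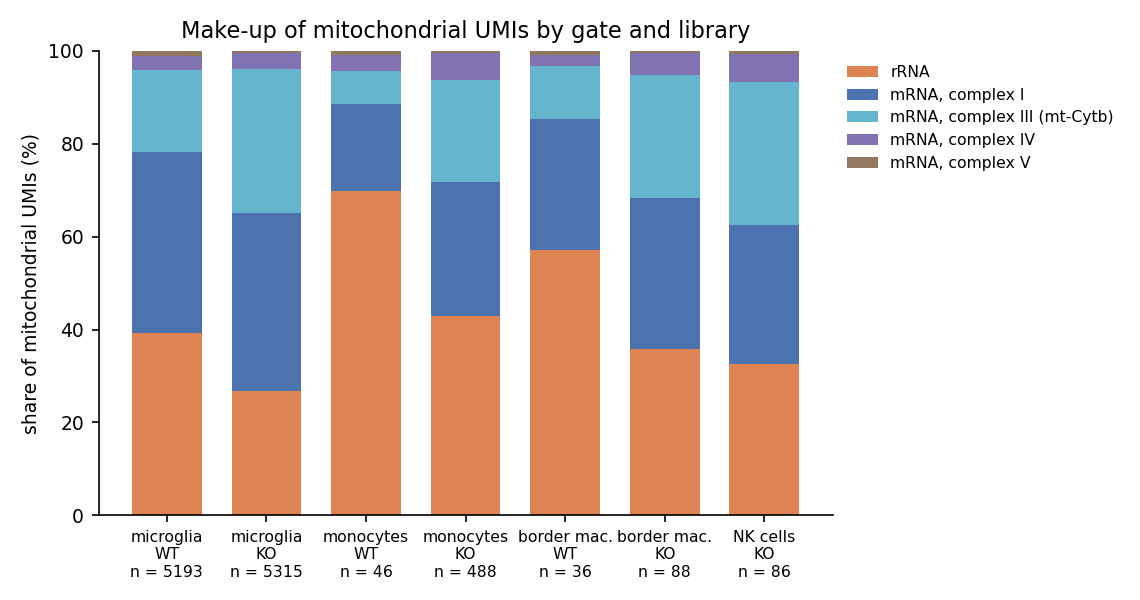
Share of mitochondrial UMIs (%) taken by rRNA and by the mRNAs of each respiratory complex, by gate and library (WT wild-type, KO Msn knockout, n barcodes), with monocytes shown without barcodes rich in Ttr or S100a8. tRNA, at most 0.140% in the microglia gate, is not drawn. rRNA takes 39.2% in wild-type and 26.8% in knockout microglia, and mt-Cytb 17.5% and 31.0%.

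Most nuclear-encoded partners lay on the other side of 0 from the mitochondrial genes. Of 79 nuclear subunits of complexes I to V, 74 had a log2 ratio above 0 and 5 below (Ndufs1, Sdha, Sdhc, Atp5a1 and Atp5b). Ndufs1, a core subunit of complex I named after its values were seen, was at 36.2 and 24.95 CPM, a log2 ratio of -0.54 (-0.63 to -0.44) that was -0.10 with TMM scaling, whereas the other 4 lay above 0 with TMM. Of the 79, 34 were called higher in the knockout microglia gate, against 5.77% of all genes, and none was called lower, against 31.2%. Relative to the median of all genes, 65 of 79 were called higher, against 16.2%. In complex I, 15 of 37 were higher and the median log2 ratio was 0.48, with Ndufa3 at 84.8 and 158 CPM (0.90) and Ndufa11 at 63.6 and 115 CPM (0.85), while Ndufs6 was at 61.9 and 62.2 CPM. Complex II, which has no mitochondrially encoded subunit, had 1 of 4 higher, Sdhb at 116 and 179.5 CPM, and Sdha was at 79.6 and 61.3 CPM.

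Complexes III, IV and V had 8 of 9, 11 of 11 and 14 of 18 called higher relative to the median of all genes. The share of all genes called higher was 16.2% on that scale and 5.77% on the CPM scale. In complex III, 6 of 9 were higher by CPM, the scale used below, with a median of 0.64. Uqcrc1, a core subunit, was at 63.1 and 123 CPM (0.96), beside -0.75 for mt-Cytb. In complex IV, 5 of 11 were higher, with a median of 0.57. Cox5b was at 133 and 227 CPM (0.78) and Cox8a at 262 and 446 CPM (0.77), beside -1.37 for mt-Co1. In complex V, 7 of 18 were higher, with a median of 0.54. Atp5e was at 204 and 382 CPM (0.90), whereas Atp5b, the catalytic beta subunit, was at 235 and 206 CPM, a log2 ratio of -0.19 that became 0.11 relative to the median of all genes. For each UMI of these nuclear subunits there were 1.01 UMIs of mitochondrial mRNA in the wild-type microglia gate and 0.288 in that of the knockout.

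**Figure D5:**
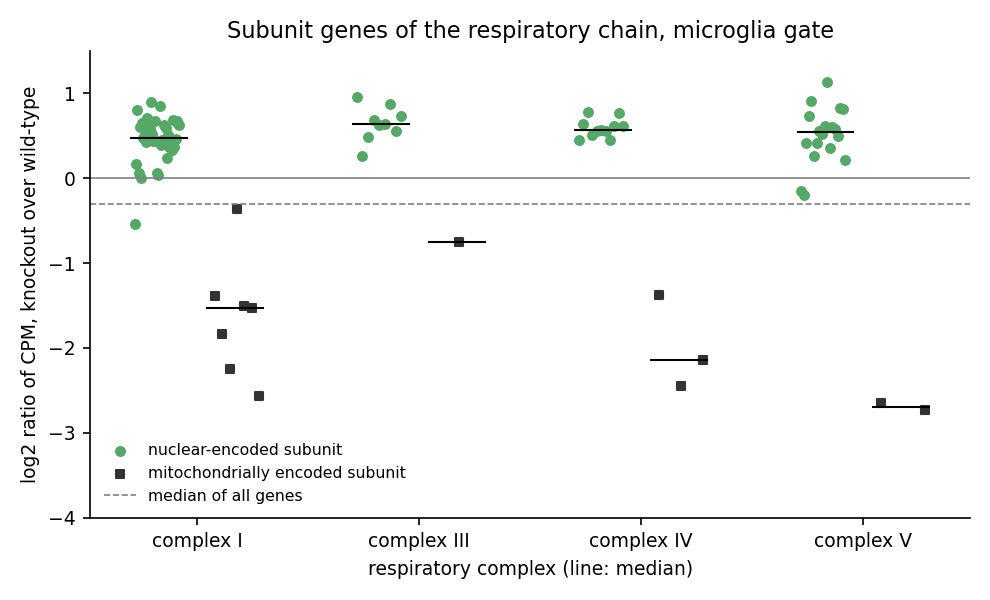
Log2 ratio of CPM, knockout over wild-type library in the microglia gate, for nuclear-encoded (circles) and mitochondrially encoded (squares) subunit genes of complexes I, III, IV and V. Short lines are medians within each group and the dashed line is the median of all genes (-0.31). Nuclear medians lie between 0.48 and 0.64, and every mitochondrially encoded gene lies below 0 on this scale, mt-Nd4l (-0.36) being above 0 with TMM scaling (0.07).

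Nuclear genes also make and handle mitochondrial RNA. Of 10 tested genes for transcription and upkeep of the mitochondrial chromosome, none was called higher, against 5.77% of all genes, and 1 lower, against 31.2%. The count was the same relative to the median of all genes, where 16.2% of all genes were higher and 11.9% lower. That gene was Polg2, the accessory subunit of the mitochondrial DNA polymerase, at 26.0 and 9.92 CPM (-1.39). Tfam, which packages mitochondrial DNA and starts its transcription, was at 30.9 and 27.0 CPM. Ssbp1, the single-strand binding protein, was at 81.9 and 80.1 CPM. Of 19 tested genes for processing and stability of mitochondrial RNA, none was called higher (5.77% of all genes) and 1 lower (31.2%), while relative to the median of all genes 3 were higher and 1 lower. That gene was Lrpprc, at 41.3 and 21.6 CPM (-0.94), whose product stabilises mitochondrial mRNAs in a complex with the product of Slirp, at 69.4 and 88.1 CPM (0.34). Polg2, Tfam and Lrpprc were picked out after their values were seen. The median log2 ratios of these lists were -0.30 and -0.23, near that of all genes.

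Of 77 tested mitochondrial ribosomal protein genes, 8 were called higher and none lower, against 5.77% and 31.2% of all genes, with a median log2 ratio of 0.31. Relative to the median of all genes 45 of 77 were called higher, against 16.2%, and none lower, against 11.9%. Mrps21 was at 58.5 and 103 CPM (0.82) and Mrpl52 at 138 and 230.2 CPM (0.73). Of 22 genes of import, matrix and membrane proteins, 2 were called higher, against 5.77% of all genes, the import receptor gene Tomm22 at 72.7 and 114 CPM (0.65) and the chaperonin gene Hspe1 at 134 and 226 CPM (0.75). Opa1, needed for inner membrane fusion, was the 1 called lower, against 31.2% of all genes, at 38.8 and 19.2 CPM (-1.02), and was also picked out after its values were seen. Relative to the median of all genes 10 of the 22 were called higher and 1 lower. Among nuclear noncoding RNAs, Neat1 was at 402 CPM in the wild-type microglia gate and 133 CPM in that of the knockout (-1.59), while Malat1 was at 35193 and 31435 CPM (-0.16).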

How the data were processed

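The authors deposited tables of UMI counts, as whole numbers, for 2 libraries, made with Cell Ranger 7.0.0 per the file headers, whereas the labels' protocols name version 6.0, on GRCm39 with 10x 3′ chemistry v2. Groups came from the genotype label. The labels' protocols name a filter at 500 genes per cell, but 207 wild-type and 1463 knockout barcodes in the deposited counts lie under it. No barcode was removed here for genes, mitochondrial share or doublets, and no doublet caller was run, so doublets may remain.

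Counts were summed by library, gate and depth bin and scaled to 1000000 UMIs (CPM). A barcode took a class when its gate genes had at least 2 UMIs and at least 80% of the UMIs of all 5 gate genes (P2ry12, Ace, Ly6c2, Mrc1, Nkg7). For NK cells Ly6c2 was left out of the sum and NK was assigned before monocytes. Classes under 50 barcodes in a library were not compared. Intervals (95%) were exact Poisson for CPM, exact conditional for ratios and exact binomial (Clopper-Pearson) for shares. A limit of 3 counts stood for a count of 0. No replicate existed, so no model was fitted and no p-value is given. Named were all 37 members and, of each nuclear list, up to 2 genes with the highest and 2 with the lowest ratio at 50 CPM or more, with exceptions marked as such; the text gives part of them. The members and lists were chosen with earlier results of these data known.

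Nuclear copies were found with blastn 2.17.0 and exact matches of 90-base windows on GRCm39 with GENCODE M39 genes, in which all 37 members were found by identifier. Values were computed with Python 3.11.15, numpy 2.4.6, scipy 1.17.1 and pandas 2.3.3. The calling was checked on counts simulated from the wild-type microglia gate with known changes, a check that covers counting error only. Alternatives were other barcode filters, scalings, gates and call rules, equal weight per barcode and, added after seeing the data, a split by nuclear copy and the removal of barcodes with 20 or more UMIs of Ttr, S100a8 or Hbb-bs.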

Additional observations from a re-analysis of the deposited data

How the results depend on the processing

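No paired analysis was possible because each genotype has 1 library and no replicate numbers. None of 55 alternative log2 ratios of summed mitochondrial RNA changed direction, and 35 moved beyond the counting interval. Total mitochondrial RNA over all barcodes (-1.44) became -1.50 with at least 500 genes, -1.55 with at least 2000 UMIs, -1.46 scaled to UMIs of other genes, -1.13 against the median of all genes, -1.02 with TMM, -1.00 with median of ratios, -1.03 with equal weight per barcode and -1.46 without barcodes rich in Ttr, S100a8 or Hbb-bs. In the microglia gate, total, mRNA and rRNA (-1.57, -1.30 and -2.11) became -1.59, -1.32 and -2.14 with at least 2000 UMIs, and -1.58, -1.31 and -2.13 scaled to other genes. They became -1.26, -0.99 and -1.81 relative to the median, -1.14, -0.87 and -1.68 with TMM, and -1.10, -0.83 and -1.65 with median of ratios. With equal weight per barcode they were -1.45, -1.11 and -2.02, and with a looser gate (1 UMI, 50%) -1.53, -1.27 and -2.07. A stricter gate (3 UMIs) gave -1.26 for mRNA and -2.13 for rRNA. The mRNAs with and without a nuclear copy of their 3′ end gave -1.83 and -1.25. tRNA (-3.66) became -3.22 with TMM and -3.19 with median of ratios. The 13 members called lower (31.2% of all genes) became 31 with no minimum level (44.3%), since more members were then counted. They became 12 with a 2-fold rule (7.74% of all genes), TMM (7.21%) or median of ratios (6.44%). For the other moves the cause was not tested. Depth limits the tRNAs, mt-Co2 and mt-Nd4l.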

Other observations

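Barcodes with over 10% of UMIs from mitochondrially encoded genes were 138 of 5842 in the wild-type library against 11 of 9038 in the knockout library (2.36% and 0.122%). Of the 138, 108 had under 1000 UMIs and 17 were in the microglia gate, and rRNA made up 54.2% of their mitochondrial UMIs. Of the 11, 8 had under 1000 UMIs, none was in the microglia gate and 2 had 20 or more UMIs of Ttr, the transthyretin gene of choroid plexus epithelium. The highest share in 1 barcode was 74.0% in the wild-type library against 84.9% in the knockout library.

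All 11 knockout barcodes with 20 or more Ttr UMIs lay outside the microglia gate. Their mitochondrial share ranged from 0.0597% to 84.9%, with a median of 0.983%. The 1 such wild-type barcode (51 UMIs of Ttr) was in the microglia gate, with a mitochondrial share of 2.55%. Of the 22 knockout barcodes with 20 or more UMIs of the beta-globin gene Hbb-bs, 20 were in no gate, and their mitochondrial share was 0.182% in sum, below that of the whole library (0.543%). The 3 such wild-type barcodes had 0.440%, against 1.48% in the whole library. The 76 knockout barcodes with 20 or more UMIs of S100a8 had 0.457%, and 45 of them were in the microglia gate. The 8 such wild-type barcodes had 1.34%, and 5 of them were in the microglia gate.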
